A study of Mus musculus with 10 samples.

Results

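The 7 genes described here code for proteins of the extracellular matrix and for 1 matrix receptor. Sparc, Postn, Abi3bp and Igfbp7 are secreted matrix proteins, Timp2 is a protease inhibitor, Npnt is an integrin ligand and Itga6 is a laminin receptor subunit. Their probe sets were found by Entrez gene or symbol in the authors' deposited tables of changed genes, which gave 9 of the 22690 probe sets on 430A and 1 of the 12488 on U74Av2. All 7 genes were found on 430A, among 543 named genes, and Sparc alone was found on U74Av2, among 275. Each of these tables lists only probe sets that the authors had selected for a difference between the same arrays, so every gene named here had passed that selection.

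The arrays measured RNA of ureteric buds, the epithelial outgrowths that form the collecting ducts of the kidney. They were dissected at E11.5 from mouse embryos of the Swiss Webster stock and cultured in Matrigel, a basement membrane gel. One group, plus GDNF, received 100 ng/mL GDNF, the growth factor that acts through the receptor tyrosine kinase Ret, for 16 h, and the other, minus GDNF, was grown for 16 h without it. There were 5 arrays of each Affymetrix type, 430A and U74Av2, of which 3 were plus GDNF and 2 were minus GDNF. The buds were isolated from the mesenchyme that surrounds them in the embryo, and each array held a pool of 5 to 6 batches of 30 to 40 buds. Values are deposited intensities per probe set on a linear scale, and p-values measure the spread between pools.

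A basement membrane surrounds the ureteric bud, and the branching epithelium both deposits and remodels it. Laminins and type IV collagen form its network, to which matricellular proteins such as Sparc attach and which cells grip through integrins. In the mouse kidney, Npnt made by the bud binds the integrin of Itga8 on the facing mesenchyme and is needed for the kidney to form. Matrigel supplies basement membrane proteins from outside the cells, and the arrays record RNA of the buds, not that protein.

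The promoters of 4 genes whose signal was lower with GDNF are shown because these genes differed in the same direction. RefSeq windows of GRCm38.p6, 250 bases before to 50 after a gene's start, were available for 5 of the 7 genes, in 7 windows. Capitals mark matches on either strand to 6 motifs, which were the TATA box core TATAAA, the CCAAT box, the GC box GGGCGG, the ETS motif CCGGAAG, the AP-1 motif TGANTCA and the E-box CAGGTG bound by Snail and Zeb factors.
Sparc, chr11:55420031-55420330, minus strand: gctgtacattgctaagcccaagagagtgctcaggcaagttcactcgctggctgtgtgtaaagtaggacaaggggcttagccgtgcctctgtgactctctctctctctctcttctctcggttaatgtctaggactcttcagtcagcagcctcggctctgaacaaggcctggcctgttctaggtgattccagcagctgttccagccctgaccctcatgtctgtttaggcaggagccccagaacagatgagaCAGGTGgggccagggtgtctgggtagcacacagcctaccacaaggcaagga
Postn, chr3:54360857-54361156, plus strand: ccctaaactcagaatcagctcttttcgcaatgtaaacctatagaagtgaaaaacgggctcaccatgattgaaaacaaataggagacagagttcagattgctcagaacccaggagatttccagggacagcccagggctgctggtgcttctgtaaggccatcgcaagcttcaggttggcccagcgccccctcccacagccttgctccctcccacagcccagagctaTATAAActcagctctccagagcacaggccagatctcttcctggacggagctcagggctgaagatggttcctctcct
Igfbp7, chr5:77407996-77408295, minus strand: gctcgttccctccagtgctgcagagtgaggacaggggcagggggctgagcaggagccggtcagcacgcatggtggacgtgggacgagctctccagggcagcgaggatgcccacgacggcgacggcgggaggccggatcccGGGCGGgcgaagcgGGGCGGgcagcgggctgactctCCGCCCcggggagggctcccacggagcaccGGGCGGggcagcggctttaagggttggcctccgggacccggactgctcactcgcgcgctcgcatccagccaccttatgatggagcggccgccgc
Timp2, chr11:118355362-118355661, minus strand: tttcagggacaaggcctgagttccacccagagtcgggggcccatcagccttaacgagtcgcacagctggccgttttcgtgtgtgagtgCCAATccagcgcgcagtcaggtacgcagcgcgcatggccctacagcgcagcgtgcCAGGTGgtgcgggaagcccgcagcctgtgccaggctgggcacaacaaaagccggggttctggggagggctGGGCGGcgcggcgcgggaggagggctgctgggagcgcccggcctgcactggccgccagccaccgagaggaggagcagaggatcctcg

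The Sparc window holds 1 CAGGTG, whose first base lies 1 base before the start. The Postn window, the second of a pair for this gene, holds a TATAAA at position -26. The Igfbp7 window holds 4 copies of the GC box, counted on both strands, and 73.3% of its bases are G or C, against 55.3% in the Sparc window. Timp2 has 1 CCAAT box, 1 GC box and 1 E-box. Over the 7 windows, the E-box occurred in 3, the GC box in 3, the CCAAT box in 2 and the TATA core in 1. Of all 32851 RefSeq windows of this length, 20.2% held the E-box, 35.7% the GC box, 37.4% the CCAAT box and 13.6% the TATA core. The ETS motif (8.86% of all windows) and the AP-1 motif (7.81%) had no match in these 7 windows. A match is a run of letters and no evidence of binding.

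On 430A the 6 matrix genes were all lower in plus GDNF buds, by 1.46-fold to 2.01-fold, and Itga6 was higher, by 1.55-fold and 1.63-fold on its 2 probe sets. In each of the 9 probe sets the 3 plus GDNF arrays lay wholly on one side of the 2 minus GDNF arrays, 7 of them below and 2 above. Among all 19521 probe sets tested, every plus array lay below every minus array in 15.7% and above in 15.3%. By limma with Benjamini-Hochberg adjustment over all of these probe sets, 0 of the 9 passed an adjusted p of 0.05, as did 0% of the array. All 9 had an unadjusted limma p under 0.05, which 13.3% of all probe sets had (5.05% lower and 8.21% higher). Their adjusted p-values ran between 0.060 and 0.20, and 3 of the 9 were under 0.1, against 1.01% of all probe sets. Among these 3 was Abi3bp, whose plus values were all set to a common lower limit before the test, which left them no spread. Since the authors chose these probe sets by the same contrast, the counts describe the 7 genes and give no independent support.

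Igfbp7 had the widest difference of the group. This secreted protein binds insulin-like growth factors weakly and attaches to collagen of the basement membrane. Its intensity was 1239, 1425 and 1991 on the plus GDNF arrays, against 2717 and 3439 on the minus GDNF arrays. The highest plus array stayed below the lower minus array by 0.45 on the log2 scale. The log2 difference was -1.01 ± 0.22 (SE, n = 3 and 2; limma adjusted p = 0.16), or 2.01-fold lower, the 8th lowest of the 19521 probe sets. The plus GDNF arrays also spread more than for most members, with 1552 ± 391 (SD, n = 3) against 3078 ± 510.4 (SD, n = 2).

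Sparc, the collagen-binding glycoprotein also called osteonectin, was the member measured most often, by 2 probe sets on 430A and 1 on U74Av2. The first 430A probe set read 3046, 3576 and 3012 in plus GDNF buds, against 5413 and 4918 in minus GDNF buds. The second read 2278, 2543 and 2336 in plus GDNF buds, against 4107 on both minus GDNF arrays. On both, the gap between the groups was wider than the range within either group. Their log2 differences were -0.69 ± 0.12 (SE; limma adjusted p = 0.11) and -0.79 ± 0.10 (SE; limma adjusted p = 0.060), the 75th and 37th lowest of the array. Both 430A probe sets cite the same sequence record in the authors' deposited table, so they are not independent measurements.

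The U74Av2 probe set of Sparc gave 1395, 1383 and 1414 in plus GDNF buds, against 2284 and 2185 in minus GDNF buds. The plus values were nearly alike, 1397.5 ± 15.5 (SD, n = 3), and the nearest minus array stood 0.63 above them on the log2 scale. On that array type 5.17% of all 10588 probe sets tested had every plus array below every minus array, and 1.02% were lower at an unadjusted limma p under 0.05, as Sparc was. The log2 difference was -0.68 ± 0.13 (SE; limma adjusted p = 0.21 over 10588 probe sets, of which 0.00944% passed 0.05). In the authors' deposited table the U74Av2 means of Sparc are 1541 with GDNF and 2710 without, whereas the deposited values average 1397.5 and 2235. The fold of -1.76 in the authors' deposited table therefore rests on means other than those of the deposited values.

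Taking both array types together, Sparc was 1.61-fold lower in plus GDNF buds, with a mean log2 difference of -0.68. An exact permutation test of the array labels within each type gave a two-sided p of 0.01, the smallest that its 100 arrangements can give. Sparc was lower on 6 of 6 plus GDNF arrays than on any minus GDNF array of the same type. Of all probe sets tested, 15.7% on 430A and 5.17% on U74Av2 were lower in this way. The authors had selected Sparc on both types for a difference between these arrays, so neither the p nor this count is independent support. With same-named arrays of the types averaged to 5 samples, the exact p was 0.1, again the smallest possible, here with 10 arrangements. Same-named arrays deviated from their group means together across 184 genes named on both types (r between 0.408 and 0.592), although the series text describes different pools for each chip. Whether they shared RNA was not tested. The Sparc decrease was smaller on U74Av2 than on 430A by 0.01 in log2. The 95% interval of the U74Av2 difference minus the 430A difference ran from -0.39 to 0.41 (limma interaction, adjusted p = 0.99 over the 184 genes, all of them selected by the authors on both types).

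**Figure D1:**
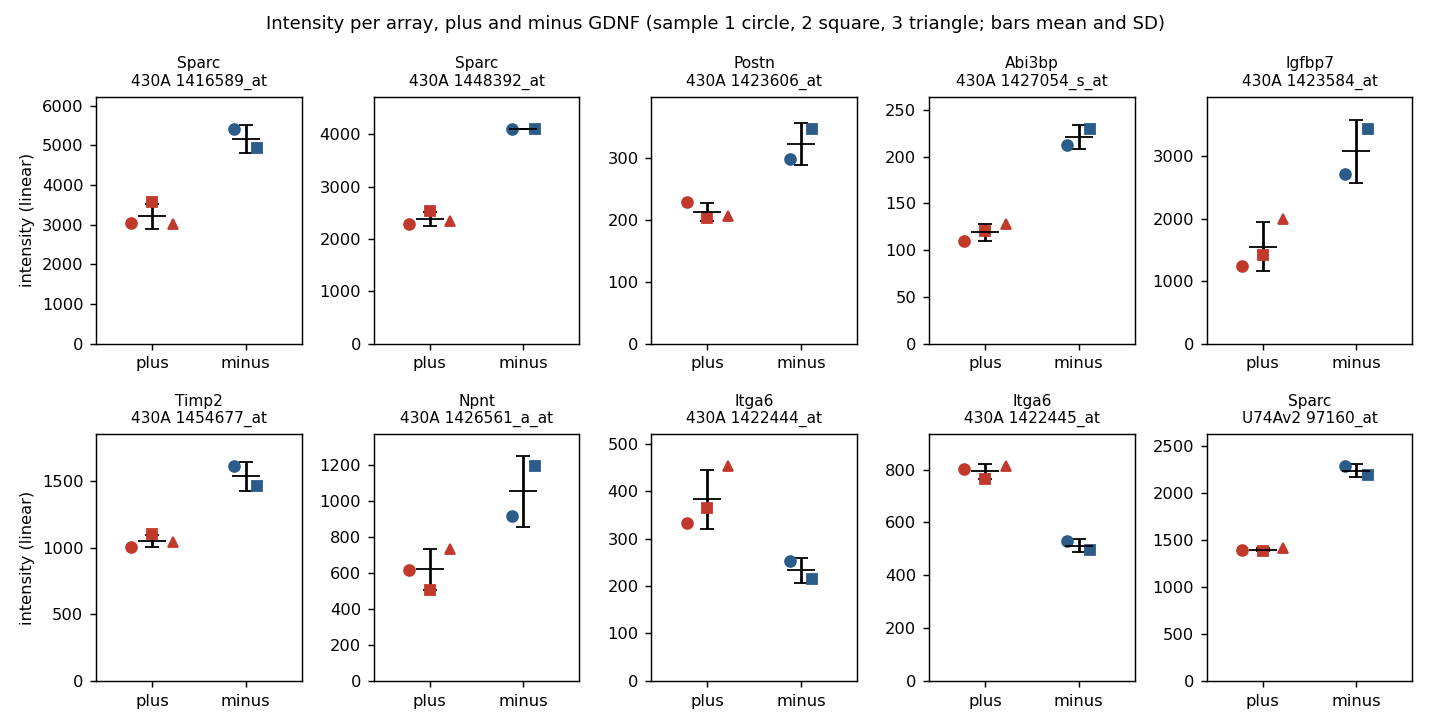
Deposited intensity (linear scale) on each array for the 9 probe sets on 430A and the Sparc probe set on U74Av2, with plus GDNF in red and minus GDNF in blue; black bars are the mean and SD (n = 3 and 2). The groups do not overlap in any of the 10 panels, and Itga6 alone is higher with GDNF.

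Periostin, the product of Postn, is a secreted protein that links collagen and fibronectin and is typical of stromal cells. Its signal was 229.6, 203 and 207 in plus GDNF buds, against 299.7 and 348 in minus GDNF buds. All 3 plus values were below both minus values, by 0.38 on the log2 scale at the closest. The log2 difference was -0.60 ± 0.12 (SE; limma adjusted p = 0.12), or 1.52-fold lower.

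Abi3bp, a secreted matrix protein first found as a binding partner of the adaptor Abi3, was the dimmest case. It read 109.7, 119.9 and 128 in plus GDNF buds, against 212 and 229.7 in minus GDNF buds. Every plus value was below the floor of 143 set for the test, the 20th percentile of the table, and both minus values were above it. With the plus values set to the floor, the log2 difference was -0.62, or 1.54-fold lower (limma adjusted p = 0.083). The floor left the plus values no spread, so this p does not measure the spread between their pools. Without the floor the log2 difference was -0.89. Its probe set carries the suffix that Affymetrix gives to probes shared between transcripts of different genes, so the signal may not be Abi3bp alone.

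Timp2 inhibits matrix metalloproteases and, together with Mmp14, also takes part in activating Mmp2. Its intensity was 1009, 1104 and 1043 in plus GDNF buds, against 1615 and 1462 in minus GDNF buds. Both groups were tight, at 1052 ± 48.4 in plus GDNF buds (SD, n = 3) and 1538 ± 108 in minus GDNF buds (SD, n = 2). At -0.55 ± 0.10 (SE; limma adjusted p = 0.11) Timp2 had the smallest log2 difference of the 6 lower genes, 1.46-fold.

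Npnt codes for nephronectin, the basement membrane ligand of the Itga8 integrin and a product of the bud epithelium itself. It measured 617, 508 and 735 in plus GDNF buds, against 917 and 1195 in minus GDNF buds. The groups were separate but both were wide, with the closest pair of arrays 0.32 apart in log2. The log2 difference was -0.77 ± 0.19 (SE; limma adjusted p = 0.20), or 1.71-fold lower and the 39th lowest of the array.

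The 95% interval of Igfbp7, from -1.56 to -0.46 on the log2 scale, contained the log2 differences of the other 5 lower genes. Its own value of -1.01 lay below the 430A intervals of Timp2, Postn and the first Sparc probe set, and differences between genes were not tested. The interval of Abi3bp is not compared, since its plus values were all set to the floor. In the authors' filter, which asks for a difference of means over 100 and a lower 90% bound of the fold over 1.2, Abi3bp and Postn were closest to the first limit. The authors' deposited table gives them differences of -102 and -109.4. In the authors' deposited table the bounds nearest the second limit were those of Postn, -1.25, and Npnt, -1.27.

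Itga6 codes for the integrin alpha 6 subunit, which pairs with Itgb1 or Itgb4 to hold epithelial cells to laminin. Its first probe set measured 333, 364 and 453 in plus GDNF buds, against 252 and 214 in minus GDNF buds. Its second measured 804, 763 and 813 in plus GDNF buds, against 529 and 494 in minus GDNF buds. Both were higher on all 3 plus GDNF arrays than on either minus GDNF array. The log2 differences were 0.71 ± 0.16 (SE; limma adjusted p = 0.17) and 0.63 ± 0.09 (SE; limma adjusted p = 0.084), the 275th and 390th highest of the array. In the authors' deposited table both probe sets cite the same sequence record, so they are not independent measurements.

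**Figure D2:**
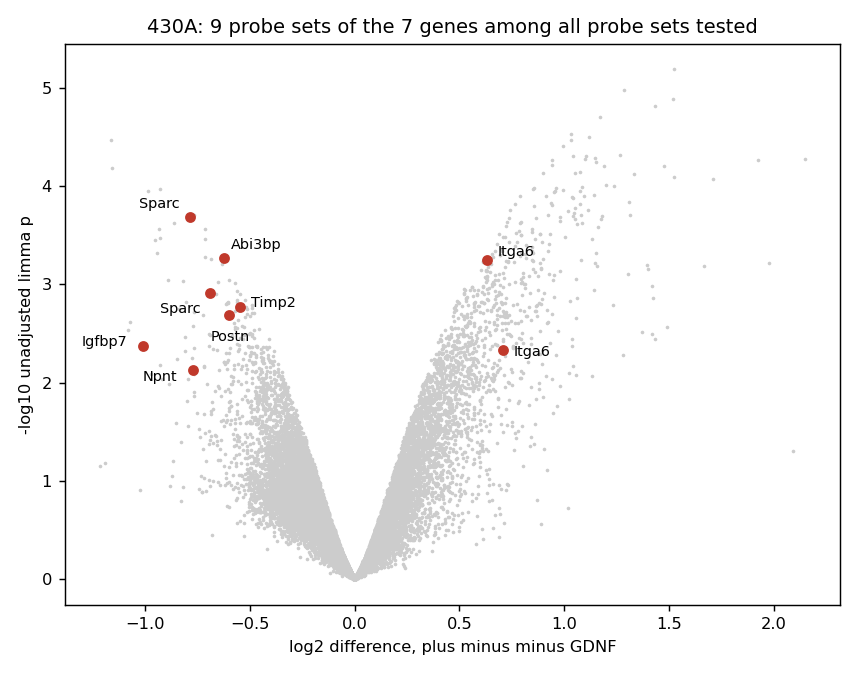
The log2 difference, plus minus minus GDNF (x axis), against -log10 of the unadjusted limma p (y axis) for the 19521 probe sets tested on 430A (grey), with the 9 probe sets of the 7 genes in red. Igfbp7 has the lowest log2 difference of the 9 at -1.01, and the second Sparc probe set has the smallest p.

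The other genes of the matrix were read from 5 lists holding 145 genes, of which 14 had a named probe set on 430A, the 7 genes above and 7 more. Of the 14, 12 were lower and 2 higher in plus GDNF buds, with a median log2 difference of -0.60. Without the 7 genes already described, 6 of the other 7 were lower, with a median of -0.60. Over all probe sets tested the median was -0.07. Among the 543 genes named on this array, which were selected in the same way, the median was 0.60 and 23.4% were lower. By limma 0 of the 14 passed, as 0% of the array did, and the groups overlapped in none of them, against 15.7% of all probe sets with every plus array below and 15.3% above. The authors had selected all 14 for a difference between these arrays. Genes of the lists outside the authors' tables have no name here and were not analysed.

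Among secreted matrix genes, 6 of 39 were named and all 6 were lower, the other 2 being Smoc2, a calcium-binding relative of Sparc, and the proteoglycan Bgn. Smoc2 read 489.9, 473 and 721 in plus GDNF buds, against 874 and 1045 in minus GDNF buds (log2 -0.80 ± 0.21 SE; limma adjusted p = 0.21). Bgn read 415, 394 and 459 with GDNF, against 585 and 671 without (log2 -0.57). Of 25 basement membrane genes, Npnt and Col18a1 were named. Col18a1, the basement membrane collagen whose end is released as endostatin, measured 2215, 2385 and 3325 in plus GDNF buds, against 3815 and 4062 in minus GDNF buds (log2 -0.60). None of the laminin, nidogen or type IV collagen genes on the list was named.

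Of 25 proteases and inhibitors, Timp2 and the lysosomal cathepsins Ctsb (log2 -0.55) and Ctsl (log2 -0.60) were named, and all 3 were lower. Ctsl was also named on U74Av2, with a log2 difference of -0.52. Of 29 integrins and matrix receptors, Itga6 and the adhesion adaptor Pxn (paxillin) were named. Pxn read 514, 541 and 476 in plus GDNF buds, against 823 and 730.3 in minus GDNF buds (log2 -0.61), opposite in sign to Itga6, and on U74Av2 its log2 difference was -0.46. Of 27 collagen and fibrillar matrix genes, the one named was Plod2, an enzyme that hydroxylates collagen lysines. Plod2 was higher, with 535, 548 and 533 in plus GDNF buds, against 372 and 326 in minus GDNF buds (log2 0.63). Plod2 and Itga6 were thus the 2 higher genes of the 14.

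**Figure D3:**
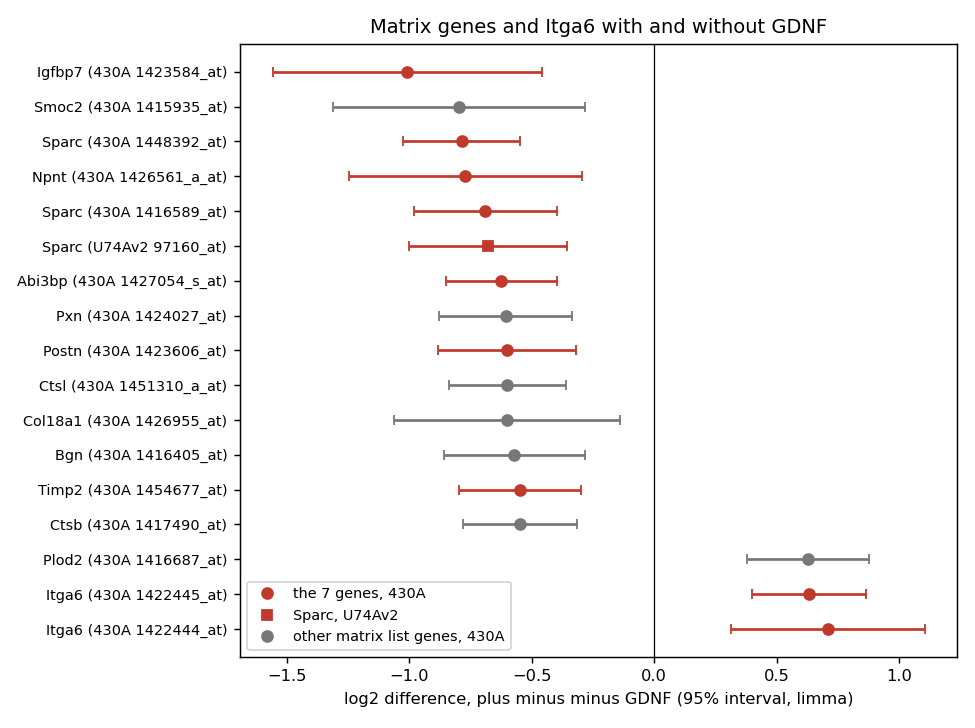
The log2 difference, plus minus minus GDNF (x axis), with limma's 95% interval for each probe set of the 7 genes (red; circles 430A, square U74Av2) and for the 7 other named matrix genes on 430A (grey). The value of Abi3bp was taken with its plus GDNF intensities set to the floor. Itga6 and Plod2 lie above 0 and the other genes below it.

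The genes with the most similar 430A profile were sought among the 539 other named genes with ordinary symbols, by the root mean square difference of log2 values centred over the 5 arrays. The authors had selected all of these genes for a difference between the same arrays. A small value can therefore reflect a difference of like size alone, and none was tested. Sparc was nearest to Myof (0.029), the membrane repair protein myoferlin, and to Pxn (0.065). For Timp2 the nearest were Ctsb (0.026) and the membrane protein Itm2b (0.034). Igfbp7 lay nearest to the kidney cadherin Cdh16 (0.090) and the iron exporter Slc40a1 (0.13), and Npnt to Smoc2 (0.11) and the heat shock protein Hspa1b (0.12). Postn was nearest to Nxph1 (0.044) and Acaa2 (0.051). No neighbour is given for Abi3bp, since its 3 plus GDNF values were all set to the floor. The profile of Itga6 was nearest to those of Esf1 (0.012) and Ybx3 (0.021). The probe sets of Myof and Esf1 carry the same suffix as that of Abi3bp, so their signal may also be shared between genes.

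Members differed in how much single arrays departed within a group. The Gapdh control probe sets give a gauge of RNA integrity, their 3' over 5' signal, which on 430A was 1.19, 1.115 and 1.52 on the plus GDNF arrays, against 1.09 and 1.74 on the minus GDNF arrays. Plus sample 3 and minus sample 2 had the highest ratio of their groups, on U74Av2 as well. Igfbp7 was 0.58 higher in log2 on plus sample 3 than on the mean of plus samples 1 and 2, and 0.34 higher on minus sample 2 than on minus sample 1. For Npnt these values were 0.39 and 0.38. Across all probe sets tested on 430A, the 5th to 95th percentile of the first quantity ran from -0.39 to 0.35. Igfbp7 and Npnt both lay above that range. The 5th to 95th percentile of the difference between the minus samples ran from -0.46 to 0.69, and both Igfbp7 and Npnt lay inside it. On plus sample 3 the first Itga6 probe set stood at 0.38, also above the range of the first quantity. The 2 Sparc probe sets stood at -0.13 and -0.04, and Timp2 at -0.02.

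Within arrays of like ratio the direction could not change, since the groups overlapped in none of the 9 probe sets. Only the sizes of the differences are therefore given. Between plus samples 1 and 2 and minus sample 1 the log2 difference of Igfbp7 was -1.03, and between plus sample 3 and minus sample 2 it was -0.79. The second Sparc probe set had -0.77 and -0.81 in these 2 sets of arrays, and Npnt -0.71 and -0.70. Postn had -0.47 and -0.75. The widest gap was that of the first Itga6 probe set, with 0.46 and 1.08, whereas its second had 0.56 and 0.72. Each of these values compares 3 or 2 arrays and has no test.

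**Figure D4:**
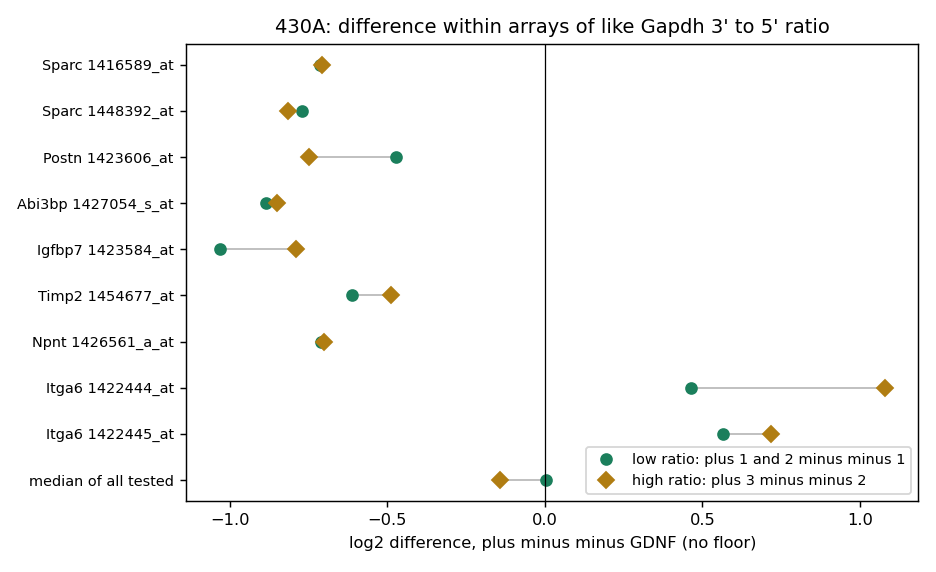
The log2 difference without a floor, plus minus minus GDNF (x axis), on 430A within the arrays of low Gapdh 3' to 5' ratio (circles, plus samples 1 and 2 with minus sample 1) and of high ratio (diamonds, plus sample 3 with minus sample 2). All 9 probe sets keep their sign in both sets, as they must where the groups do not overlap. The median of all probe sets tested lies at 0.003 and -0.14.

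Some markers of other cells that isolated buds could carry were lower with GDNF, as the matrix genes were. Those with a name had been selected by the authors for a difference, none passed limma's adjusted p of 0.05, and the rest of each list was not analysed. Apart from Postn, 4 of 19 stromal markers were named on 430A (Vim, Tcf21, Thy1 and Cdh11). Their summed intensity was 1844 to 2524 in plus GDNF buds, against 3419 to 3485 in minus GDNF buds. The 4 of 17 named markers of the metanephric mesenchyme (Cited1, Cdh11, Ncam1 and Wnt4) summed to 1764 to 1834 with GDNF, against 2782 to 2828 without. Cdh11 stands in both lists. On U74Av2, where Sparc was also lower, 2 stromal markers (Acta2 and Thy1) summed to 639 to 714 in plus GDNF buds, against 890.1 to 1061 in minus GDNF buds. The 2 mesenchyme markers named there (Ncam1 and Wnt4) summed to 859 to 948 in plus GDNF buds, against 1488 to 1522 in minus GDNF buds. Acta2 overlapped, at 399 to 513 in plus GDNF buds and 507 and 705 in minus GDNF buds. In the other named markers every plus array lay below every minus array, as in 15.7% of 430A and 5.17% of U74Av2 probe sets. The part of these cells in the matrix values was not tested, and in pooled buds fewer cells of a type and less RNA per cell cannot be told apart.

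Apart from Npnt, 6 of 15 markers of the bud epithelium were named, and their sum was 15229 to 15568 in plus GDNF buds, against 15739.7 to 16257 in minus GDNF buds. Calb1, Ret, Wnt11 and Lhx1 were higher with GDNF, and Krt8 and Cdh16 were lower. On U74Av2 the 3 named bud markers (Ret, Wnt11 and Calb1) summed to 4339 to 5568 with GDNF, against 1711 to 2223 without. Krt8, Cdh16 and Lhx1 had no named probe set there, so the sums of the 2 array types cover unlike genes. Wnt11 passed on U74Av2 (limma adjusted p = 0.011), with both minus GDNF values at the floor. The calcium-binding protein Calb1, found in the bud and its derivatives, read 6292, 6200.4 and 5472 in plus GDNF buds on 430A, against 4096 and 3226 in minus GDNF buds. Krt8, which went the other way, read 3511, 4345 and 4313 in plus GDNF buds, against 6225 and 5378 in minus GDNF buds. Cdh16, also lower, read 2407, 2400 and 3900 in plus GDNF buds, against 4833 and 5901 in minus GDNF buds. Calb1, Krt8 and Cdh16 were each far above the floor of 143 on all 5 arrays. None of 13 endothelial and 19 blood or macrophage markers had a named probe set.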

How the data were processed

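For each probe set the authors deposited a linear intensity on every array. The series text names dChip 1.3 for the comparison. How the values were normalized is not given in the sources used here. Comparison tables deposited by the authors hold signed folds (unit score here, with a minus sign for lower with GDNF) for probe sets past their filter. Groups and sample numbers came from the titles. Names were taken from those tables by Entrez identifier, brought to current symbols with the RefSeq table of GRCm38.p6 (661 of 693 listed probe sets on 430A and 292 of 312 on U74Av2 had exactly 1 protein-coding gene). Other probe sets are unnamed here.

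Intensities below the 20th percentile of each table (143 on 430A, 65.0 on U74Av2) were set to it before log2. Tests left out 64 and 66 control probe sets, and a further 3105 and 1834 that exceeded the floor on no array. Separate fits per array type used limma 3.58.1 (R 4.3.3), plus against minus GDNF, two-sided, with SE from the moderated variance. The code was first run on simulated arrays with independent noise, bright probe sets and changes larger than most here. That run does not show how accurate the fits are for these genes. Differences are log2, plus minus minus GDNF.

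The text names the 7 genes, every named gene of the matrix lists and the 2 nearest profiles per gene (none for Abi3bp, which was at the floor); markers name the cell lists. 1 bud marker is not reported here, and its list's counts and sums leave it out. Members and lists were chosen with earlier results of these data known. Alternatives changed the normalization, floor, filter, variance model, threshold, block and arrays.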

Additional observations from a re-analysis of the deposited data

How the results depend on the processing

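Every probe set of the 7 genes kept its direction in each of 17 other settings where it was tested. Leaving arrays out could not change the direction, since no groups overlapped. Another floor, filter, threshold or variance model and the replicate block below could not reverse it either. Only the changes of normalization and the Gapdh covariate could have done so. Abi3bp was not tested with the floor at the 40th percentile, and Postn and Abi3bp were not tested among probe sets above the median level. Of the 9 probe sets on 430A, the count past the threshold was 0 in limma, 2 of 7 among probe sets above the median level (the second probe sets of Sparc and Itga6), 1 with a trended robust variance and 3 at an adjusted p of 0.1. With the Gapdh ratio as a covariate, added after the data were seen, 1 of 9 on 430A and 1 of 1 on U74Av2 passed, both of them Sparc probe sets. These settings also changed the calls over all probe sets, from 0 to 153, 48, 198 and 166 on 430A (30 with the floor at the 10th percentile) and from 1 to 5, 3, 5 and 267 on U74Av2. With each array left out in turn, the share of all 430A probe sets with an unadjusted p under 0.05 ran from 7.07% without plus sample 2 to 34.6% without minus sample 1, and with the replicate block below it was 6.75%. Leaving out each array in turn gave 0 to 0 calls among the 9 probe sets, and without minus sample 2 only 8 of 9 had an unadjusted p under 0.05, Npnt having 0.051 in limma. Without variance moderation, also added later, Npnt again had 0.051. The mean log2 difference of Sparc over both types was -0.68 with an exact p of 0.1 when same-named arrays were averaged, and -0.72 with an exact p of 0.11 without plus sample 3 and minus sample 2 of each type, added later, where 9 arrangements exist. Leaving out each of the 10 arrays in turn gave -0.72 to -0.65 (exact p 0.017 to 0.025). Plus and minus arrays of the same number did not consistently deviate together (correlations of deviations -0.015 and -0.62 on 430A, 0.16 and -0.70 on U74Av2). Some arrays of unlike number did. Plus sample 2 with minus sample 1 had 0.62 on 430A and 0.70 on U74Av2, and plus sample 3 with minus sample 2 had 0.41 and 0.66. Deviations of the 2 minus arrays mirror each other by construction, so these values are not separate tests of pairing. A fit with sample number as a replicate block called 0 of the 9 probe sets on 430A (adjusted p 0.43 to 0.66) and 0 of 1 on U74Av2 (0.95), and gave Sparc -0.67 over both types. That last fit held only the 184 genes the authors had selected on both types and counted same-named arrays as separate, so its p (limma adjusted p = 0.0015) is not independent evidence. The number of arrays limits every value here.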

Other observations

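Values on 430A of other genes that act in the matrix or in adhesion, outside the lists and chosen after their values were seen, went both ways. Pcolce, which helps cleave fibrillar procollagen, read 428, 453 and 407 in plus GDNF buds, against 582 and 559 in minus GDNF buds. Mgp, the matrix Gla protein, read 441, 404 and 317 with GDNF, against 560.3 and 550.2 without. Ccdc80 (log2 -0.56), Tinagl1 (log2 -0.61) and the collagen Col26a1 (log2 -0.56) were lower as well, and in these 5 genes no plus GDNF array reached a minus GDNF array, as in 15.7% of all probe sets tested. Cadm1, an adhesion molecule of the immunoglobulin family, was higher, with 1256, 1092 and 1128 in plus GDNF buds, against 539.7 and 638 in minus GDNF buds (log2 0.98; limma adjusted p = 0.060). Ctsc was higher too (log2 0.67), opposite in sign to the cathepsins Ctsb and Ctsl. None of these 7 genes passed limma's adjusted p of 0.05 on 430A, where 0 of 19521 probe sets did. All 7 had an unadjusted p under 0.05, as 13.3% of all probe sets had, and the choice of genes by their values fixed that count.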
